A study of Mus musculus with 95 samples.

Results

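The transcripts described here encode the subunits of the mitochondrial respiratory chain, measured in whole lung of mice exposed to Pneumocystis murina, a fungus of mouse lung, by a shared cage and of unexposed mice. They are the probe sets that the platform annotation pairs with a single gene whose symbol begins with Nduf, Sdh followed by a to d, Uqcr, Cox4, Cox5, Cox6, Cox7, Cox8 or Atp5. This rule found 100 members of 10832 probe sets with a single gene, for 73 of 8251 genes. Of these, 38 probe sets (29 genes) belonged to complex I, 4 to complex II, 7 to complex III, 23 (15 genes) to complex IV and 22 (14 genes) to complex V. The remaining 6 probe sets stood for Ndufaf1, Ndufaf4, Sdhaf1 and Sdhaf2, which are assembly factors and no subunits but begin with the same letters. A further 10 probe sets pair a symbol of the family with other genes as well and were left out. The annotation gave 20 of the 73 genes more than 1 probe set.

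The respiratory chain sits in the inner mitochondrial membrane. Complex I takes electrons from NADH, complex II from succinate, and both pass them through ubiquinone to complex III and, by cytochrome c, to complex IV, which reduces oxygen. The proton gradient that complexes I, III and IV build drives complex V, the ATP synthase. Most subunits are made in every cell with mitochondria, and several subunits of complex IV exist in tissue forms. Cox6a2, Cox7a1 and Cox8b are the forms of heart and skeletal muscle, with Cox7a1 and Cox8b also known from brown fat, whereas Cox6a1, Cox7a2 and Cox8a are found in most tissues and Cox6b2 and Cox8c are known from testis.

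Each of the 95 arrays held RNA of 1 mouse lung homogenate, from mice labelled as female and 8 weeks old. There were 60 arrays of exposed and 35 of unexposed mice in 19 groups of strain, day and exposure. The strains were C57BL/6 and CD40L-KO, which lacks CD40 ligand in every cell, and exposure came from an infected seeder mouse kept in the same cage. Experiment 1 compared 3 exposed with 2 unexposed C57BL/6 mice and 3 exposed with 3 unexposed CD40L-KO mice at day 32. Experiment 2 compared C57BL/6 mice at days 34 and 41, with 10 exposed and 5 unexposed mice at each. Experiment 3 compared C57BL/6 mice at day 7 (8 exposed, 4 unexposed), day 14 (8 exposed, 6 unexposed) and day 21 (6 exposed, 5 unexposed). Experiment 4 compared 4 CD40L-KO mice exposed for 35 days with 5 unexposed CD40L-KO mice labelled day 14. The design text assigns to no experiment 3 exposed CD40L-KO and 3 exposed C57BL/6 mice of day 75 and 2 exposed CD40L-KO mice of day 39. Since cages held either exposed or unexposed mice, an effect of the cage cannot be told apart from that of exposure.

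Levels are log2(intensity + 8), on which an intensity of 0 is at 3, and a difference is a difference of group means on that scale, with the standard error (SE) and adjusted p of limma over all 10832 probe sets. A difference is called where the adjusted p is under 0.05. Of the 100 respiratory chain probe sets, 66 were brighter than the median probe set of the array and 34 were dimmer. Alveolar and airway markers were high on all arrays, with Sftpc between 12.38 and 14.59 and Scgb1a1 between 12.18 and 14.31. On 16 of the 95 arrays markers of squamous epithelium were also high (a mean of 7.17 or more, against at most 6.10 on the others). The Gapdh 3'/5' ratio, which grows as RNA degrades, lay between 0.883 and 4.42 with a median of 1.11. On 17 arrays, all those of the groups of days 39, 75 and 35 and of the CD40L-KO mice labelled day 14, the Y-linked Eif2s3y exceeded Xist although the label is female. Cd40lg lay between 3.05 and 3.75 on all arrays, too near the floor to check the genotype. In a homogenate, fewer cells of a type and less RNA per cell cannot be told apart.

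The probe sets that varied most between mice of 1 group were those of the muscle forms of complex IV. Within groups, the SD of Cox7a1 was 1.06, above that of 99.5% of all probe sets tested, and the SDs of Cox8b were 0.84 and 0.68 for its probe sets. Cox6a2 had an SD of 0.62. Their levels ran from 3.63 to 8.43 for Cox7a1, from 5.34 to 9.54 for Cox8b (probe set 160851_r_at) and from 7.12 to 10.12 for Cox6a2. The median SD within groups was 0.28 over the 100 respiratory chain probe sets and 0.26 over all other probe sets.

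The promoter windows of muscle and general subunits are shown side by side because the levels of the former swung most between mice. Each window runs from 250 bases before to 50 bases after the start of the gene in RefSeq on GRCm38.p6, which is the build of that table and not of the arrays. Capitals mark matches on either strand to any of the motifs searched. The letters GCATGCGC are the core of the site of NRF1, a nuclear regulator of respiratory genes. The letters CCGGAAG are bound by GABP and other ETS factors. The half-site of the ERR receptors was searched as AAGGTCA, which nuclear receptors of the oestrogen-related family bind. The E-box of muscle regulators was searched as CAGCTG, a site read by MyoD and its relatives. The TATA box, a core promoter element, was searched as TATAAA, and the MEF2 site by its consensus. Cox7a1 lies at chr7:30183921-30184220 on the plus strand, Cox8b at chr7:140900397-140900696 on the minus strand, Cox6a1 at chr5:115348909-115349208 on the minus strand and Sdhb at chr4:140961021-140961320 on the plus strand.
Cox7a1: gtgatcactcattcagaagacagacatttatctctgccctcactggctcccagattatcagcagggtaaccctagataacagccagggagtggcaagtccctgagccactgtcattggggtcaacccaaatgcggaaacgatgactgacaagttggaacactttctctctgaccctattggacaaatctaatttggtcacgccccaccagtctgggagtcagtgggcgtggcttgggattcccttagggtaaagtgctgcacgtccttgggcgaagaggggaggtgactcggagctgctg
Cox8b: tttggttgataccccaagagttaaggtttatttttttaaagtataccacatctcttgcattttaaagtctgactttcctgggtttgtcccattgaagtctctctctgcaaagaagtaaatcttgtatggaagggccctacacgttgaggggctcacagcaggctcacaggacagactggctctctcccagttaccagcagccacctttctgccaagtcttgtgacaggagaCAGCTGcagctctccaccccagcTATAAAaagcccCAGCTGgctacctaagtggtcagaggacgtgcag
Cox6a1: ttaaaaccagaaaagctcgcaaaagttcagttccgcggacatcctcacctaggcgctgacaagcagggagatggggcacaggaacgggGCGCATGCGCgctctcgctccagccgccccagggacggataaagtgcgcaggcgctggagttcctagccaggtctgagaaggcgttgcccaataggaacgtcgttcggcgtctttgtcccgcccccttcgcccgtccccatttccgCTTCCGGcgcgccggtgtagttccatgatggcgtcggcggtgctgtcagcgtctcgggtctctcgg
Sdhb: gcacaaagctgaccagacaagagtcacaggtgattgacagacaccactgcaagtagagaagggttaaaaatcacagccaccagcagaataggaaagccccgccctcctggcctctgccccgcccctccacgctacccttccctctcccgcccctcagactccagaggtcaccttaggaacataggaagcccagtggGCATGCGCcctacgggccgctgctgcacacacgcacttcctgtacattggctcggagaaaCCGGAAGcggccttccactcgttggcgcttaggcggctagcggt

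The windows of Cox6a1, whose NRF1 matches overlap on opposite strands, and of Sdhb held both NRF1 and ETS letters. The window of Cox8b held E-box and TATA letters, and that of Cox7a1 held none of those searched. Of the 73 genes, 60 had a window in the table. NRF1 letters were found for 10 of these 60 genes (16.7%) and for 3.05% of all 27025 genes with a window, and ETS letters for 18 (30%) and for 9.93% of all. ERR letters were found for 5 of the 60 (8.33%, against 5.38% of all genes), MEF2 letters for 1 (1.67%, against 4.23%), E-box letters for 4 (6.67%, against 18.3%) and TATA letters for 6 (10%, against 15.7%). A match describes these letters in this window and shows no binding.

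The highest levels of Cox7a1 stood on single arrays of both strains and of several days, and 7 of the 10 highest, the top 5 among them, were unexposed mice. They were 8.43 in unexposed CD40L-KO replicate 1 of day 14, 8.06 and 7.81 in unexposed C57BL/6 replicates 1 and 4 of day 21, 8.03 in unexposed replicate 2 of day 7 and 8.00 in unexposed replicate 1 of day 32. Further unexposed mice had 7.64 (replicate 4 of day 34) and 7.10 (replicate 4 of day 14). In exposed mice the highest were 7.79 in CD40L-KO replicate 2 of day 35, 7.04 in C57BL/6 replicate 2 of day 14 and 6.93 in C57BL/6 replicate 8 of day 34. The lowest level, 3.63, was that of exposed C57BL/6 replicate 10 of day 41. Other mice of the same groups were much lower, such as 4.60 for the other unexposed C57BL/6 mouse of day 32 and 4.32, 4.77 and 4.86 for the other unexposed mice of day 7.

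Markers of cardiac muscle, which in mice also lines the pulmonary veins, were high on the same arrays. On the 10 arrays with the highest Cox7a1 the mean of the 10 measured cardiac markers of 11 listed lay between 8.60 and 9.68, and these arrays ranked between 1 and 13 of 95 by that mean. The mean spanned 5.73 to 9.68 over all arrays, and Myh6, the atrial and adult ventricular myosin heavy chain, spanned 5.25 to 11.20. The lowest levels of Myh6, Myl7, Tnni3, Actc1 and Nppa on any array lay between 4.89 (Nppa) and 8.92 (Actc1), above the floor of 3. The mean of brown and white fat markers was also high on all 10 arrays, which ranked between 1 and 19 of 95 by it, with Cidea between 7.02 and 9.75 and Adipoq between 8.39 and 11.26. By the mean of skeletal muscle markers these arrays ranked between 1 and 23 of 95, with 1 exception that ranked 72. On that array, exposed CD40L-KO replicate 2 of day 35 with Cox7a1 at 7.79, skeletal Acta1 was 4.44 while Myh6 was 10.03. Ucp1, which defines brown fat, varied more and lay between 4.55 and 9.50 on the 10 arrays and had a median of 3.76 over all 95. What part the amount of muscle or fat in a sample had in the Cox7a1 levels was not tested.

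**Figure D1:**
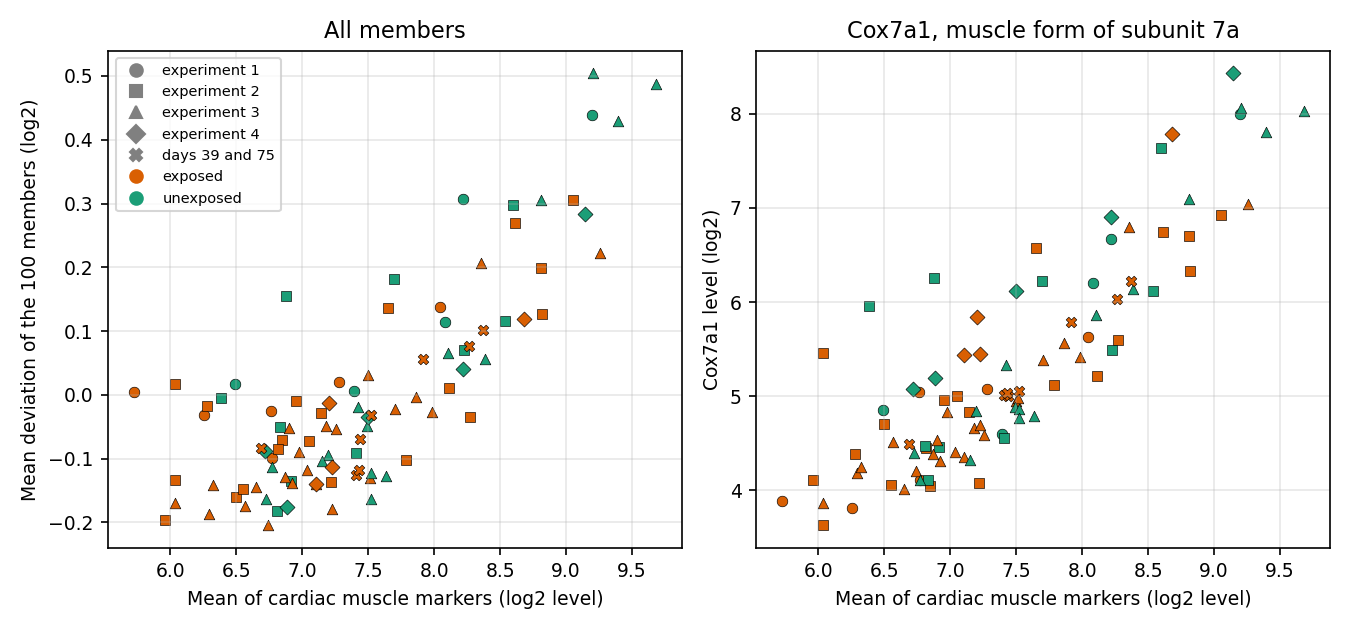
Each point is 1 of 95 arrays; the x axis gives the mean log2 level of the cardiac muscle markers and the y axes the mean deviation of the 100 respiratory chain probe sets (left) and the log2 level of Cox7a1 (right), with symbols for the experiment and colours for exposure. The array with the highest cardiac mean, 9.68, has a deviation of 0.49 and a Cox7a1 level of 8.03.

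The respiratory chain as a whole followed the same arrays at smaller amplitude. Averaged over the 100 probe sets, which include the muscle forms, the deviation of an array from the mean of all 95 arrays lay between −0.20 and 0.50. Its median was −0.03. Its SD within groups was 0.157. The highest deviations were 0.50 and 0.43 in unexposed C57BL/6 replicates 1 and 4 of day 21, 0.49 in unexposed replicate 2 of day 7 and 0.44 in unexposed replicate 1 of day 32. In these groups the other mice lay between −0.16 and 0.01, so the groups held 1 or more mice far above the rest.

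**Figure D2:**
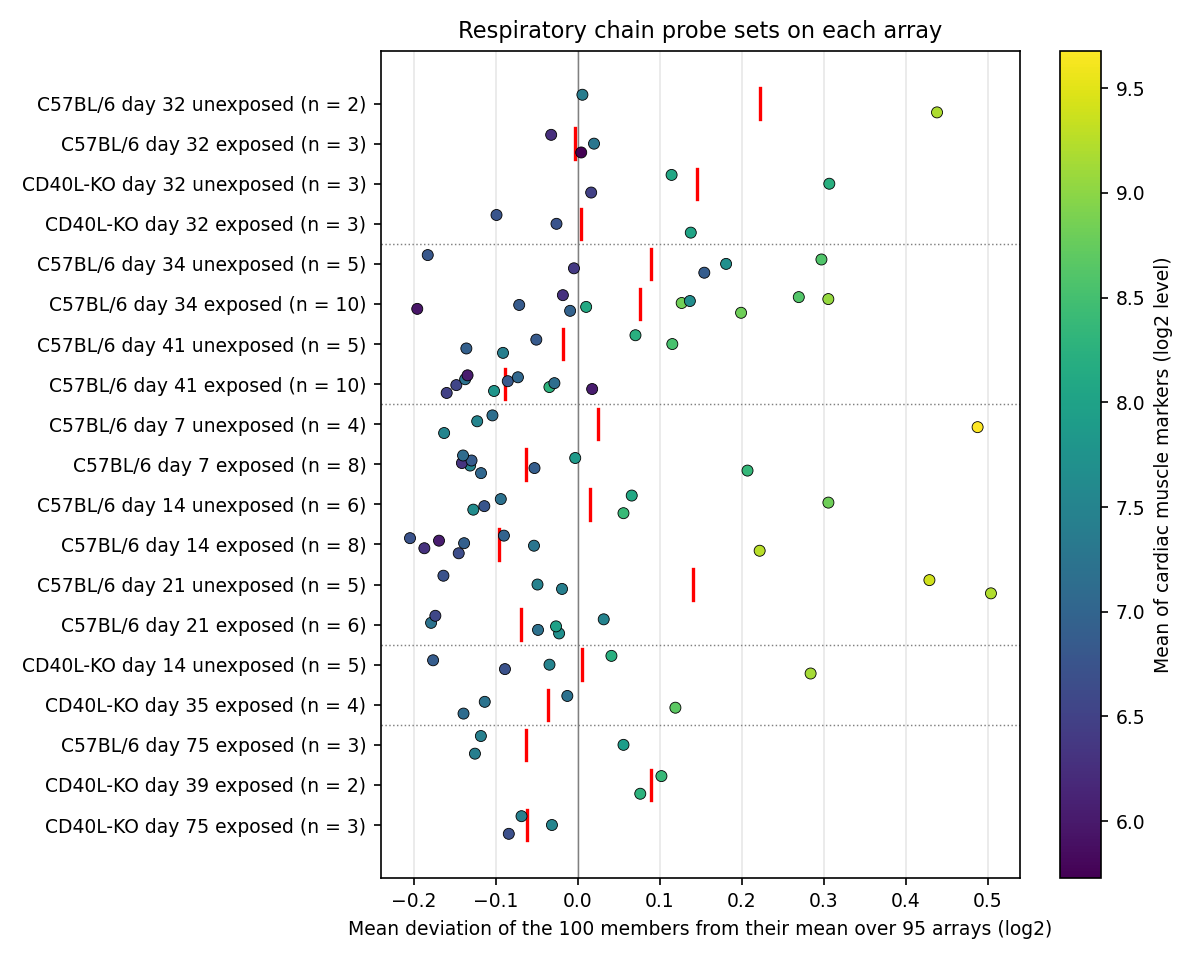
The x axis gives the mean deviation (log2) of the 100 respiratory chain probe sets from their mean over 95 arrays; each point is 1 array, rows are the 19 groups, red bars are group means and the colour is the mean log2 level of cardiac markers. Single arrays reach 0.50, and within most groups the points overlap between exposed and unexposed mice.

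Across the 95 arrays the deviation had a Pearson r of 0.80 and a Spearman rho of 0.70 with the cardiac marker mean. Without the arrays farthest from the median of that mean, r was 0.77 (n = 93). Within experiments 1, 2, 3 and 4 r was 0.85, 0.73, 0.91 and 0.94, and 0.84 over the 8 arrays of days 39 and 75. The r was 0.86 with the mean of fat markers, 0.69 with skeletal muscle markers, 0.54 with squamous markers, −0.14 with leukocyte markers, −0.08 with alveolar and airway markers and 0.05 with the Gapdh ratio. These values describe arrays that share a normalization, cages and experiments, and the marker means were themselves correlated. The leukocyte marker mean, which ran from 6.18 to 8.08, thus moved little with the chain, whereas means of muscle and fat moved with it.

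Taken singly and within groups, 52 of the 100 probe sets had an r above 0.5 with the cardiac mean, against 3.15% of the 10722 other probe sets outside the cardiac list. Among the 66 bright probe sets of the chain 49 did so, against 4.19% of 5342 other bright ones. The 3 dim ones were Cox7a1, the second probe set of Cox8b and Atp5k, the e subunit of the ATP synthase. By complex these were 23 of 38 in complex I, 4 of 4 in complex II, 6 of 7 in complex III, 8 of 23 in complex IV, 10 of 22 in complex V and 1 of 6 probe sets of assembly factors. The median r was 0.52 for the chain and −0.06 for all others.

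Cox7a1 had the highest r, 0.90, and the probe sets of Cox8b had 0.83 (161205_at) and 0.81 (160851_r_at). Sdhb, the iron-sulphur subunit of succinate dehydrogenase, had 0.83, Ndufab1, the mitochondrial acyl carrier protein within complex I, with 0.82, Cox6a2 with 0.82, Atp5a1, the catalytic-ring alpha subunit of the ATP synthase, with 0.81, and Ndufb10, a membrane-arm subunit of complex I, with 0.81. The general counterparts of the muscle forms were lower, with 0.38 for Cox6a1, 0.58 for Cox7a2 and −0.10 for the dim Cox8a. Probe sets of other general subunits of complex IV ran from −0.21 (the dim 161490_at of Cox5a) to 0.79 (Cox5b). Cox7a2l, a factor of supercomplex assembly, had 0.09.

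**Figure D3:**
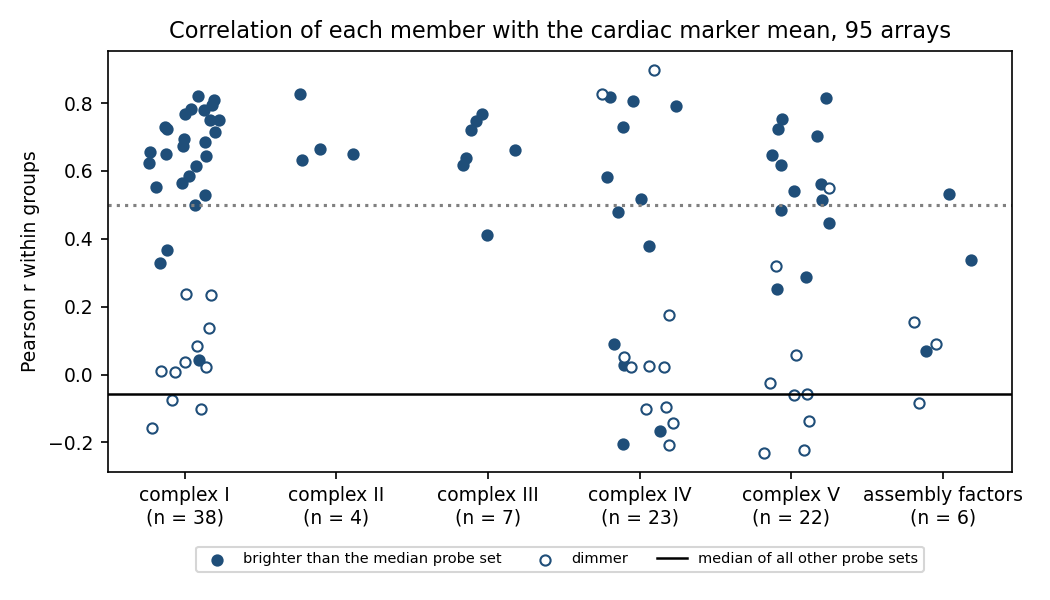
Each point is 1 respiratory chain probe set; the y axis gives its Pearson r with the cardiac marker mean within groups over 95 arrays, the x axis the complex, and filled points are brighter than the median probe set. The dotted line marks 0.5 and the black line the median of other probe sets, −0.06; filled points of complexes I, II and III lie mostly above 0.5.

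Sdhb shows the size of this spread in a general subunit. In unexposed C57BL/6 mice it was 9.77, 8.82, 8.59, 9.48 and 8.51 at day 21, and 8.48, 9.66, 8.60 and 8.66 at day 7. In exposed mice of day 21 it was 8.88, 8.52, 8.84, 8.57, 8.72 and 8.47. The high unexposed arrays were those high in Cox7a1, and the remaining unexposed mice overlapped the exposed ones.

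The 9 arrays of experiment 4 stood apart from the other 86 for some subunits. Cox8c (100965_at) lay between 5.75 and 6.45 on them and between 7.21 and 8.53 on all others, with medians of 6.02 and 7.70. One probe set of Cox6b2 (97352_f_at) lay between 5.75 and 6.37 against 6.43 to 7.36. These 2 of 100 probe sets were lower without overlap and 0 were higher, where 1.99% of all probe sets were lower and 1.81% higher without overlap (3.8% in either direction), so the share was near that of the array as a whole. Atp5a1 (10.56 to 11.04) and Uqcrh, the hinge subunit of complex III (9.81 to 10.38), were among the highest there, with 4 and 5 of the other 86 arrays above their lowest level. Ndufa10, a matrix-side subunit of complex I, was low, with 4 of 86 others under its highest level of 6.07. CD40L-KO mice of days 32, 39 and 75 had Cox8c between 7.21 and 7.80, with the other arrays, among which were also all C57BL/6 mice. These other arrays included the 8 of days 39 and 75, on which Eif2s3y also exceeded Xist, and the C57BL/6 mice of day 14. CD40L-KO mice of days 39 and 75 thus shared strain and the Eif2s3y reading with the 9 arrays, but not the low Cox8c. Properties found only in the 9 arrays, such as their handling as 1 experiment, cannot be told apart. None of these properties was tested as a cause.

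Called members were few in each of the 13 comparisons, as the plot of differences shows.

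**Figure D4:**
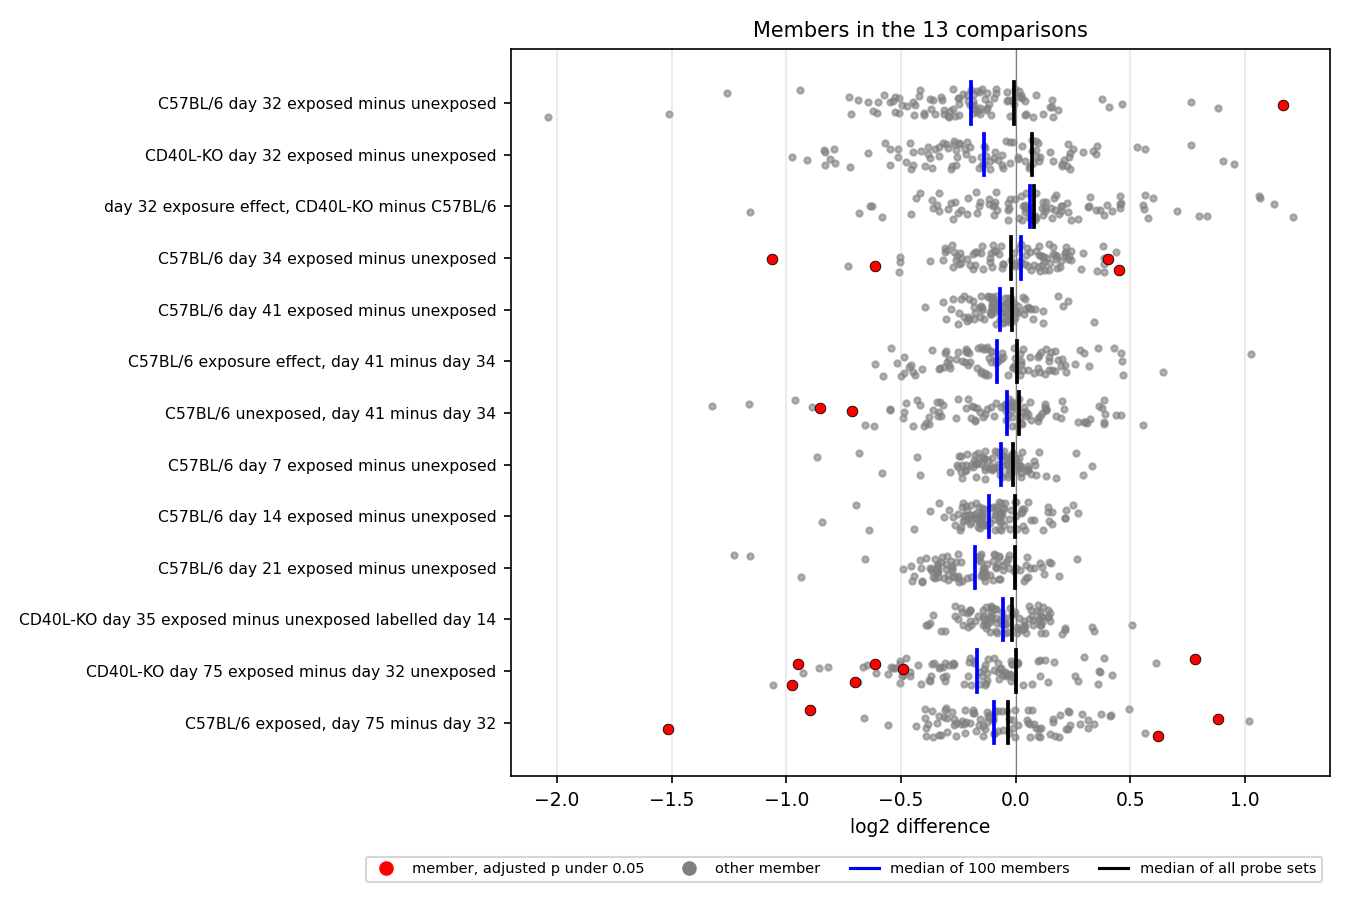
The x axis gives the log2 difference of group means for each of the 100 respiratory chain probe sets in the 13 comparisons named on the y axis; red points are called (adjusted p under 0.05), grey points are not, and bars are the medians of the 100 (blue) and of all 10832 probe sets (black). Medians lie between −0.19 and 0.06, and no comparison has more than 6 red points.

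At day 32 the respiratory chain of exposed C57BL/6 mice was low in the median but without called falls. Of 100 probe sets, 79 were below 0, against 50.9% of all, with a median difference of −0.19 against −0.01. The lowest complexes by median were complex II (−0.38, 4 of 4 below 0) and complex IV (−0.29, 18 of 23 below 0). 1 probe set was called higher and 0 lower, against 1.02% and 0.185% of all (1.2% in either direction): Atp5g2, a gene of the c ring of the ATP synthase, which by probe set 92570_at was higher by 1.16 (SE 0.24, adjusted p = 0.05, 0.0499992 before rounding). The other, brighter probe set of Atp5g2, 102134_f_at, differed by 0.04 (limma adjusted p = 0.935). In this comparison 18 of the 100 members and 32.9% of all probe sets did not overlap between the groups. By 92570_at, Atp5g2 was 4.72, 4.89 and 4.44 in exposed and 3.70 and 3.34 in unexposed mice. The groups did not overlap, but all values were within 2 log2 units of the floor, and the call was lost on leaving out any of the 5 mice (adjusted p between 0.0518 and 0.205).

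The muscle forms had the largest differences at day 32, none called. Cox7a1 was 3.89, 5.08 and 3.81 in exposed and 8.00 and 4.60 in unexposed C57BL/6 mice, a difference of −2.04 (SE 0.89, limma adjusted p = 0.307). Only the first unexposed mouse was high. Without it the median of the 100 probe sets was 0.02, and without the other unexposed mouse it was −0.44. The cardiac markers had a median difference of −2.11 in this comparison, and with their mean as a covariate the median of the chain was 0.04.

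The citrate cycle, which feeds the chain with NADH and succinate, had a median of −0.48 at day 32, with 17 of 18 measured genes of 22 listed below 0 and 0 called. Mitochondrial fatty acid oxidation had −0.67 (11 of 13 measured of 16 below 0, 0 called). Glycolysis had 0.10 (6 of 14 measured of 16 below 0), the electron carriers and inner membrane carriers −0.12 (12 of 19 measured of 30 below 0) and the regulators of mitochondrial biogenesis 0.02 (7 of 14 measured of 17 below 0), none with a called gene. In the same mice the macrophage markers C1qb and Cd68 rose by 1.83 and 1.15 (limma adjusted p = 0.0418 and 0.0356).

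In CD40L-KO mice of day 32, 0 of 100 probe sets were called in either direction, against 0.582% of all higher and 0.0923% lower (0.674% in either). Without adjustment, 3 were higher and 18 lower at p under 0.05, 21% against 14.5% of all probe sets. There were 65 below 0 against 40.2% of all, with a median of −0.14 against 0.07. Ndufs4, an accessory subunit of the NADH-oxidising arm of complex I, was 4.22, 5.05 and 4.61 in exposed and 3.64, 3.53 and 3.99 in unexposed mice, a difference of 0.91 (SE 0.23, limma adjusted p = 0.106). Ndufa5, of the same arm, was 8.85, 8.36 and 8.62 in exposed and 9.25, 9.53 and 9.48 in unexposed mice, a difference of −0.81 (SE 0.21, limma adjusted p = 0.121). Neither overlapped between the groups, like 21 of the 100 members and 20.8% of all probe sets, and neither passed the threshold. Of the 6 arrays, 2 of 3 unexposed and 1 of 3 exposed had squamous transcripts, and the Gapdh ratio was 1.16 to 1.37 in unexposed and 0.918 to 1.00 in exposed mice, without overlap. Without squamous arrays, which left 1 unexposed mouse, the median of the chain was −0.07, and with the Gapdh ratio as a covariate it was −0.39.

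Whether exposure acted differently in the strains was tested by the difference of the day 32 effects, in which 0 of 100 probe sets were called (0.166% of all, 0.0739% higher and 0.0923% lower). The smallest adjusted p was that of Ndufa1, a membrane-arm subunit that complex I needs for its assembly. By probe set 98117_at it was 5.06, 5.02 and 4.67 in exposed and 4.04 and 4.02 in unexposed C57BL/6 mice, and 4.85, 4.72 and 4.59 against 4.80, 4.87 and 5.32 in CD40L-KO mice. The difference of effects was −1.16 (SE 0.26, 95% interval −1.74 to −0.58, limma adjusted p = 0.104). By the other probe set, 98118_at, exposed and unexposed mice differed by −0.09 in C57BL/6 and −0.03 in CD40L-KO mice (limma adjusted p = 0.906 and 0.974). Both probe sets of Ndufa1 were dim, and 98118_at had a mean of 3.37, near the floor of 3. The median over the 100 was 0.06 against 0.08 for all. Without unexposed C57BL/6 replicate 1 it was −0.19, and without replicate 2 it was 0.26.

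At day 34, 4 single subunits were called in exposed C57BL/6 mice, fewer than the share of the array, and each call was lost without 1 unexposed mouse (replicate 1). Of 100 probe sets, 2 were called higher and 2 lower, against 4.17% and 2.48% of all (6.66% in either direction), with Uqcrc2 and Uqcrb lower and Ndufa9 and Atp5c1 higher. The median was 0.02 against −0.02, with 47 below 0. Of the 7 subunits of complex III 2 were called, and the 7 ranged from −1.06 for Uqcrc2 to 0.39 for Uqcrc1, while all 4 subunits of complex II were above 0 (median 0.13) without a call.

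Uqcrc2, a core subunit of complex III, was 11.70, 9.77, 9.24, 9.87 and 7.91 in unexposed mice of day 34. In the 10 exposed mice its lowest, median and highest levels were 7.75, 8.60 and 9.56, a fall of the mean by 1.06 (SE 0.33, limma adjusted p = 0.05). Uqcrb, the ubiquinone-binding subunit, was 10.26, 9.71, 9.50, 9.92 and 8.57 in unexposed mice and 8.47, 8.98 and 9.39 at its lowest, median and highest in exposed mice, a fall by 0.61 (SE 0.18, limma adjusted p = 0.0369). For both, unexposed replicate 1 was the highest array of the experiment and unexposed replicate 5 lay among the exposed mice, so the groups overlapped. Cox6a1, the general form of subunit 6a, was 12.03, 10.83, 10.99, 11.28 and 10.44 in unexposed and 10.22, 10.61 and 11.08 in exposed mice (difference −0.50, limma adjusted p = 0.0533), with the same array on top.

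Ndufa9, an accessory subunit near the ubiquinone site of complex I, rose by 0.45 (SE 0.12, limma adjusted p = 0.0227). It was 7.62, 8.34, 8.53, 8.43 and 8.30 in unexposed mice and 8.40, 8.71 and 9.01 at its lowest, median and highest in exposed mice. Atp5c1, the gamma subunit that turns within the ATP synthase, rose by 0.40 by probe set 92798_at (SE 0.12, limma adjusted p = 0.0403), from 8.20, 8.81, 8.85, 8.98 and 8.72 to 8.76, 9.08 and 9.45. Its other probe set, 92799_g_at, differed by 0.22 (limma adjusted p = 0.339). Unexposed replicate 1, the highest for the complex III subunits, was the lowest here, and without it Uqcrc2, Uqcrb and Atp5c1 were no longer called and neither was Ndufa9 (limma adjusted p = 0.268, 0.169, 0.186 and 0.116).

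**Figure D5:**
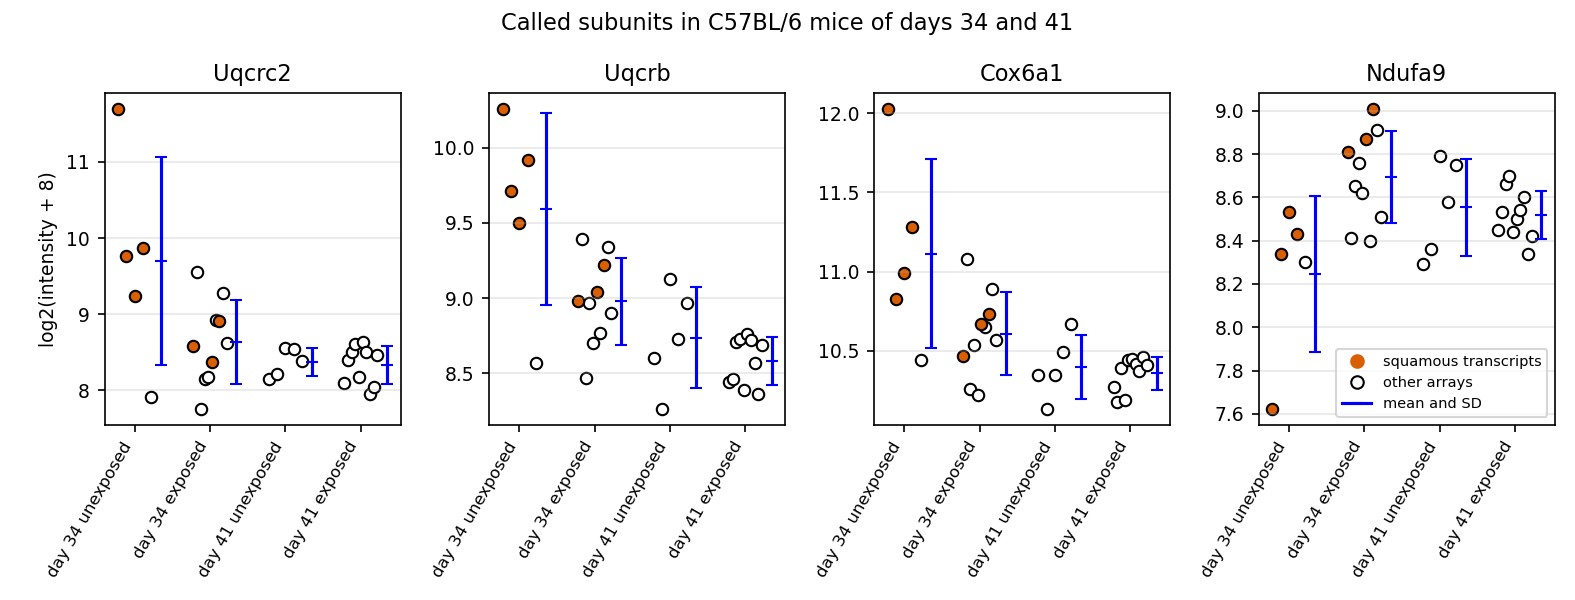
The y axes give log2(intensity + 8) of Uqcrc2, Uqcrb, Cox6a1 and Ndufa9 in C57BL/6 mice of days 34 and 41; each point is 1 array, orange points have squamous transcripts, and the blue bar is the mean ± SD. Unexposed day 34 replicate 1 is at 11.70, 10.26, 12.03 and 7.62, the extreme of its group in each panel.

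The Gapdh ratio and squamous markers also differed between these mice, and what part they had in the calls was not tested. In unexposed replicates 1 to 5 of day 34 the Gapdh ratio was 4.42, 3.24, 1.24, 2.40 and 1.21, and the mean of squamous markers was 8.00, 8.13, 7.28, 8.15 and 5.41. In exposed mice of day 34 the ratio was 0.897 to 3.02 and 3 of 10 arrays had squamous transcripts, and at day 41 it was 0.909 to 1.12 with 0 such arrays. With the Gapdh ratio as a covariate 0 of 100 probe sets were called, and Uqcrc2 differed by −0.28. Without squamous arrays, which left 1 unexposed and 7 exposed mice, the differences of Uqcrc2 and Uqcrb were 0.73 and 0.37, of opposite sign. The count also turned on single mice: 1 without unexposed replicate 1 or 2 or exposed replicate 4 or 10, 2 without exposed replicate 1, 3, 5, 6, 7 or 8, 7 without exposed replicate 2 and 8 without unexposed replicate 5.

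Of the other pathways at day 34, Slc25a5, the ADP/ATP carrier of the inner membrane, rose by 0.45 (limma adjusted p = 0.0396) and Pfkp, a phosphofructokinase of glycolysis, by 0.68 (limma adjusted p = 0.0268). They were the 1 called gene of 19 carriers and the 1 of 14 glycolysis genes. The citrate cycle (median 0.02, 8 of 18 below 0), fatty acid oxidation (−0.12, 8 of 13) and biogenesis regulators (−0.03, 10 of 14) had none. C1qb and C1qa rose by 1.48 and 1.47 (limma adjusted p = 1.14e-05 and 4.36e-05).

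At day 41, 0 of 100 probe sets were called in exposed C57BL/6 mice, against 0.462% of all, each of these higher, and 0 had an unadjusted p under 0.05, against 7.01% of all. There were 82 below 0, against 54.5% of all, but the median was only −0.07. Uqcrc2 was 8.15 to 8.56 in unexposed and 7.95 to 8.63 in exposed mice, and Uqcrb 8.26 to 9.13 and 8.36 to 8.76, all overlapping. The smallest adjusted p was that of Sdhaf2, which attaches FAD to succinate dehydrogenase, at −0.25 (SE 0.12, 95% interval −0.50 to 0.00, limma adjusted p = 0.715). Cardiac markers had a median difference of −0.76, and with their mean as a covariate the median of the chain was −0.003. The citrate cycle had a median of −0.09 (16 of 18 below 0) and fatty acid oxidation −0.28 (13 of 13 below 0), with 0 called in either.

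The exposure effects of days 34 and 41 were compared directly, and 0 of 100 probe sets were called (0.0646% of all, 0.0369% higher and 0.0277% lower). Atp5c1 (92798_at) had the smallest adjusted p, with effects of 0.40 at day 34 and −0.18 at day 41 (difference −0.58, SE 0.17, limma adjusted p = 0.226). For Uqcrc2 the difference of effects was 1.03 (SE 0.47, 95% interval 0.06 to 1.99, limma adjusted p = 0.457).

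Between the unexposed C57BL/6 mice of days 34 and 41, 2 of 100 probe sets were called lower at day 41 and 0 higher, against 0.72% and 1.03% of all (1.75% in either direction). Uqcrb fell from 10.26, 9.71, 9.50, 9.92 and 8.57 to 8.60, 8.26, 9.13, 8.73 and 8.97, a fall by 0.85 (SE 0.21, limma adjusted p = 0.0348). Cox6a1 fell from the values given above to 10.35, 10.13, 10.35, 10.49 and 10.67, by 0.71 (SE 0.18, limma adjusted p = 0.0421). In both cases the lowest mouse of day 34 overlapped those of day 41. Skeletal Tnnc2 and squamous Krt4 fell by 3.83 and 4.02 between the same mice (limma adjusted p = 0.0348 and 0.0404). With the Gapdh ratio as a covariate, or without squamous arrays, 0 were called. The count was 0 without day 34 replicate 1, 2 or 4 or any 1 mouse of day 41, and 15 without day 34 replicate 5.

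At day 7, 0 of 100 probe sets were called (0% of all, 0 of 10832), and 0 had an unadjusted p under 0.05, against 6.49% of all. There were 75 below 0 with a median of −0.06, against −0.01 for all. The smallest p was that of Ndufa10, at −0.24 (SE 0.12, limma adjusted p = 0.762). Cox7a1 was 4.86, 8.03, 4.77 and 4.32 in unexposed mice and 4.25, 4.47 and 6.80 at its lowest, median and highest in exposed mice. Unexposed replicate 2 was the highest array, and without it the median of the chain was 0.11, of opposite sign. With the cardiac mean as a covariate the median was 0.10.

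At day 14, 0 of 100 probe sets were called (0.185% of all, 0.157% higher and 0.0277% lower), and 2 were lower and 0 higher without adjustment, against 7.40% of all. The median was −0.12 with 79 below 0. Ndufa2, of the matrix arm of complex I, was 7.74, 8.07 and 8.27 at its lowest, median and highest in 8 exposed mice and 8.08, 8.31 and 8.50 in 6 unexposed mice, which overlapped (difference −0.25, SE 0.10, limma adjusted p = 0.515). Cox7a2, the general form of subunit 7a, was lower by 0.22 on the log2 scale (difference −0.22, limma adjusted p = 0.635). Cox7a1 differed by −0.84 (SE 0.58, limma adjusted p = 0.844), with 7.10 in 1 unexposed and 7.04 in 1 exposed mouse as the highest. With the cardiac mean as a covariate the median of the chain was 0.05.

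Day 21 had the most probe sets below 0 of all 13 comparisons, 84 of 100 against 50.8% of all. The median was −0.18 against −0.00 for all, and 0 were called (0% of all, 0 of 10832). Without adjustment 11 were lower and 0 higher, 11% against 10.7% of all probe sets in either direction. By complex the medians were −0.20 in complex I (33 of 38 below 0), −0.32 in complex II (4 of 4), −0.35 in complex III (7 of 7), −0.13 in complex IV (18 of 23) and −0.24 in complex V (18 of 22).

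Ndufb3, of the membrane arm of complex I, was 7.98, 7.93, 7.79, 7.61, 7.74 and 7.72 in exposed and 8.86, 7.79, 8.09, 8.42 and 7.86 in unexposed mice (difference −0.41, SE 0.14, limma adjusted p = 0.342). Cox8b (160851_r_at) was 6.45, 6.38, 7.13, 6.32, 6.77 and 6.10 in exposed and 9.54, 7.82, 5.97, 8.87 and 6.58 in unexposed mice (difference −1.23, SE 0.52, limma adjusted p = 0.402). Cox7a1 was 8.06, 5.33, 4.89, 7.81 and 4.40 in unexposed mice and 4.51 to 5.42 in exposed ones. In each case unexposed replicates 1 and 4 were the highest and the rest overlapped the exposed mice.

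Unexposed replicates 1 and 4 of day 21 had cardiac means of 9.21 and 9.39, against 6.73 to 7.98 in the other 9 mice, and both had squamous transcripts. Without squamous arrays the median of the chain was 0.01, with the cardiac mean as a covariate −0.07 and with the fat mean 0.06. Leaving out replicate 1 or 4 gave −0.13 or −0.11, and leaving out replicate 5 gave −0.29. The citrate cycle (median −0.32, 16 of 18 below 0), fatty acid oxidation (−0.39, 11 of 13), glycolysis (−0.37, 12 of 14) and the carriers (−0.18, 13 of 19) were low in the same comparison, with 0 called genes.

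In CD40L-KO mice exposed for 35 days, 0 of 100 probe sets were called against the unexposed mice labelled day 14 (0.00923% of all), and 2 were higher and 3 lower without adjustment, against 9.08% of all. The median was −0.05 with 60 below 0, against −0.02 for all. Cox6b2 (97352_f_at) had the smallest p (difference 0.33, SE 0.11, limma adjusted p = 0.451). Cox7a1 was 5.44, 7.79, 5.45 and 5.84 in exposed and 8.43, 5.08, 6.12, 5.19 and 6.90 in unexposed mice, which overlapped. Days of housing differed between these groups.

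The remaining comparisons set mice of day 75 against mice of day 32, and also differ in the sex markers, since Eif2s3y exceeded Xist on all arrays of day 75 and on none of day 32. The mice of day 32 belong to experiment 1 and those of day 75 to no stated experiment. Day, sex markers and experiment, and in the CD40L-KO comparison also exposure, cannot be told apart. In CD40L-KO mice, exposed mice of day 75 had 5 probe sets lower and 1 higher than unexposed mice of day 32, against 2.36% and 4.63% of all (7% in either direction). The median was −0.17 against 0.00, and all 7 probe sets of complex III were below 0 (median −0.49).

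Atp5e, the epsilon subunit of the ATP synthase, was 8.32, 8.38 and 8.47 at day 75 and 9.41, 9.53 and 9.14 at day 32, a fall by 0.97 (SE 0.24, limma adjusted p = 0.0264). Atp5pb, the b subunit of its stator, was 4.72, 5.37 and 5.57 against 6.12, 6.24 and 6.14, a fall by 0.95 (SE 0.23, limma adjusted p = 0.0242). Neither overlapped between the groups, like 33 of the 100 members and 27.6% of all probe sets. Uqcrc2 was 8.67, 8.39 and 8.35 against 9.07, 9.51 and 8.94 and fell by 0.70 (SE 0.19, limma adjusted p = 0.0405). Cox6a1 was 10.43, 10.48 and 10.35 against 10.93, 10.87 and 10.92 and fell by 0.49 (SE 0.14, limma adjusted p = 0.0434). Of the unexposed mice of day 32, 2 of 3 had squamous transcripts, and what part these had in the differences was not tested.

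Ndufa3, of the membrane arm of complex I, was 9.23, 9.40 and 9.27 against 9.88, 9.97 and 9.89 by probe set 96915_f_at and fell by 0.62 (SE 0.14, limma adjusted p = 0.0196). Its other probe set, 102097_f_at, differed by 0.11 in the opposite direction (limma adjusted p = 0.884). Ndufs4 was 4.46, 4.24 and 4.80 against 3.64, 3.53 and 3.99 and rose by 0.78 (SE 0.21, limma adjusted p = 0.0338). The single probe set of Ndufs4 was dim, and all these values were within 2 log2 units of the floor. The mice of day 32 in this comparison are the controls of the day 32 comparison, in which Ndufs4 differed by 0.91. Their mean for Ndufs4, 3.72, was the lowest of the 19 groups.

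Skeletal Tnnt3 and Ckm and squamous Krt13 and Krtdap fell between the same CD40L-KO mice, by 3.13, 2.85, 5.35 and 5.19 (limma adjusted p = 0.0279, 0.0123, 0.038 and 0.0268). Without squamous arrays, which left 1 mouse of day 32, or with the skeletal marker mean as a covariate, 0 of 100 probe sets were called; the differences of Atp5pb were then −0.92 and −0.89 and those of Uqcrc2 −0.47 and −0.39. Without day 32 replicate 2, 0 were called, without replicate 1, 2 were, and without any 1 mouse of day 75, 1 was. Etfb, a carrier of electrons from fatty acid oxidation, fell by 0.57 (limma adjusted p = 0.0432; 1 of 19 carriers), while Gabpa, a regulator whose ETS site was searched above, rose by 0.64 and Tfb2m, of mitochondrial transcription, by 0.81 (limma adjusted p = 0.0105 and 0.0154; 2 of 14 regulators). Acads fell by 0.51 and glycolytic Aldoa by 0.87 (limma adjusted p = 0.03 and 0.0298), and 0 of 18 citrate cycle genes were called.

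In exposed C57BL/6 mice, 2 of 100 probe sets were higher and 2 lower at day 75 than at day 32, against 7.43% and 7.93% of all (15.4% in either direction), a share well below that of the array. The median was −0.10 against −0.04. Sdhaf1, which helps insert iron-sulphur clusters into Sdhb, was 7.35, 7.28 and 7.38 at day 75 and 6.81, 6.42 and 6.92 at day 32, a rise by 0.62 (SE 0.16, limma adjusted p = 0.0157). Cox6b2 (97351_i_at) was 6.88, 5.72 and 6.60 against 5.32, 5.65 and 5.58 and rose by 0.88 (SE 0.28, limma adjusted p = 0.0421). Groups did not overlap for either, though for Cox6b2 1 mouse of day 75 lay just above the highest of day 32. The same held for 31 of the 100 members and 32.8% of all probe sets, which did not overlap either. The other probe sets of Cox6b2, the brighter 97352_f_at and the dimmer 160813_r_at, differed by 0.31 and 0.15 (limma adjusted p = 0.117 and 0.709).

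Ndufa1 (98117_at) was 3.85, 3.87 and 4.34 at day 75 and 5.06, 5.02 and 4.67 at day 32 and fell by 0.90 (SE 0.24, limma adjusted p = 0.018). Unexposed C57BL/6 mice of day 32 had 4.04 and 4.02, within the range of day 75. By its other probe set, 98118_at, Ndufa1 differed by −0.27 (limma adjusted p = 0.366), and both of its probe sets were dim. Atp5g1, another gene of the c ring, fell by 1.52 by probe set 161324_r_at (SE 0.46, limma adjusted p = 0.0358), from 6.67, 4.97 and 6.75 to 4.59, 4.78 and 4.46, whereas probe set 96032_at was 5.50, 5.00 and 4.96 at day 32 and 5.02, 5.11 and 4.94 at day 75. Both probe sets of Atp5g1 lay below the median probe set of the array.

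C1qb and Cd68 fell by 2.00 and 1.18 between the same mice (limma adjusted p = 0.000343 and 0.000447), and the cardiac markers had a median difference of 1.22. With the Gapdh ratio as a covariate 0 of the 100 probe sets were called, and with the fat mean 9. Without day 75 replicate 1, 0 were called, without day 75 replicate 3 or day 32 replicate 1, 1 was, and without day 32 replicate 3, 2 were. Among the other pathways Gabpa rose by 0.77 and Tfb2m by 0.63, while Gabpb1, the partner of Gabpa, fell by 0.32 (limma adjusted p = 0.00129, 0.0249 and 0.0443; 3 of 14 regulators). Glycolysis had 1 gene higher and 4 lower of 14, with Ldhb up by 1.02 and Pgk1 and Ldha down by 0.69 and 0.67 on the log2 scale (differences −0.69 and −0.67, limma adjusted p = 0.00139, 0.0323 and 0.0228). Acaa2 of fatty acid oxidation rose by 0.65 (limma adjusted p = 0.024), and 0 of 18 citrate cycle genes and 0 of 19 carriers were called.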

How the data were processed

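Total RNA of lung homogenates was hybridised to single-colour Affymetrix arrays, per the labels' protocols. The authors deposited 1 linear intensity per probe set, for 12487 probe sets; for the summary of probes, the method was not given in the sources used here. Leaving out 2% of values at each end, array means were 100.055 to 100.071, and array medians were 35.5 to 46.3, so the deposited intensities had been scaled. The count of arrays sets the precision. Nothing says that mice of a group came from separate cages, so p-values measure the spread between these samples, which may share a cage.

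Levels were log2(intensity + 8), with no further scaling. Of the probe sets, 10832 had 1 gene and no missing value; gene symbols are those of the platform annotation, and Entrez identifiers of all 100 members were found in the RefSeq table. Groups came from the labels. The 13 comparisons were fitted within their experiment (those of day 75 with days 32 and 39) by limma 3.58.1 (R 4.3.3; lmFit, then eBayes), with Benjamini-Hochberg adjustment over all probe sets. Marker means average 1 probe set per listed gene. Any member could be named; non-members were named from the lists by the size of called differences. The members, lists and alternatives were chosen with earlier results of these data known. The cardiac and fat covariates were added after seeing the data. Alternatives were offsets of 2 and 32, no dim probe sets, quantile normalization, 1 fit of all arrays, 1 probe set per gene, covariates, no squamous arrays, the replicate block and leaving out each array; a lone array is then assumed to vary like other groups. Fits were tested on simulated data. Plots were drawn with matplotlib 3.10.9 under Python 3.11.15, and summaries made by pandas 2.3.3.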

Additional observations from a re-analysis of the deposited data

Results flagged for a closer look

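In groups of 4 to 10 mice, 83 sets of values were checked for outliers. In 17 of them the gap of the highest or lowest mouse to the next exceeded Dixon's limit. Chance flags about 1 in 20 of independent sets. These sets shared mice and held correlated measures, so 1 in 20 is no yardstick for them. The same few mice recurred.

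C57BL/6 unexposed replicate 2 of day 7 had a mean deviation of the 100 respiratory chain probe sets of 0.488, a cardiac marker mean of 9.68, Cox7a1 at 8.03 and Cox8b at 9.07, against at most −0.10, 7.52, 4.86 and 6.57 in the other 3 mice. Exposed replicate 2 of day 7 had a deviation of 0.207, Cox6a2 at 9.71 and Cox8b at 8.11, against at most −0.003, 8.46 and 6.53. Exposed replicate 2 of day 14 had a deviation of 0.222, a cardiac mean of 9.26, Cox7a1 at 7.04 and Cox8b at 8.09, against at most −0.05, 7.26, 4.83 and 6.52. CD40L-KO exposed replicate 2 of day 35 had a cardiac mean of 8.68, Cox7a1 at 7.79 and Cox6a2 at 9.04, against at most 7.23, 5.84 and 7.90. C57BL/6 exposed replicate 3 of day 41 had Cox6a2 at 8.89 and Cox8b at 7.77, against at most 8.35 and 6.93, and a cardiac mean of 6.04. C57BL/6 unexposed replicate 1 of day 34 had Ndufa9 at 7.62, against 8.30 to 8.53 in the other 4 mice, and the highest Gapdh ratio of the series, 4.42. What set these mice apart was not tested.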

How the results depend on the processing

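The count of called respiratory chain probe sets was recomputed under each alternative. At day 32 in C57BL/6 mice the 1 call became 0 with an offset of 2 or 32, without dim probe sets, with quantile normalization, with 1 probe set per gene, with the Gapdh, skeletal, cardiac or fat covariate, without squamous arrays and with the replicate block; without any 1 mouse it was 0. In CD40L-KO mice of day 32 it was 1 rather than 0 with all arrays in 1 fit. At day 34 the 4 calls became 0 with the Gapdh covariate and without squamous arrays and 1 with the replicate block, and the differences of Uqcrc2 and Uqcrb reversed to 0.73 and 0.37 without squamous arrays; leaving out 1 mouse gave 1 to 8 calls. Between the unexposed mice of days 34 and 41 the 2 calls became 1 with an offset of 2, 7 in 1 fit of all arrays, 4 without dim probe sets, 5 with the cardiac and 4 with the fat covariate, and 0 with the Gapdh or skeletal covariate, without squamous arrays and with the replicate block; Uqcrb reversed to 0.17 without squamous arrays, and leaving out 1 mouse gave 0 to 15. For CD40L-KO day 75 against day 32 the 6 calls became 13 without dim probe sets and 0 with the skeletal covariate or without squamous arrays, and 0 to 5 without 1 mouse. For C57BL/6 day 75 against day 32 the 4 calls became 2 with 1 probe set per gene or the replicate block, 0 with the Gapdh covariate and 9 with the fat covariate, and 0 to 4 without 1 mouse. The causes of these changes were not tested. Same replicate numbers did not pair mice: of 139 pairs 29 had r over 0.1, with a median of −0.01.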
